A study of Homo sapiens with 16 samples.

Results

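Clone B5 is a venetoclax-resistant line of KMS27, a human multiple myeloma cell line with the t(11;14) translocation. It makes up 2 of the 16 RNA libraries of the series, and it is set here against the 2 libraries of parental KMS27, so that 4 libraries carry the comparison. Per the labels, the sensitive line was exposed to high-dose venetoclax, resistant clones were raised from single cells, and these were then kept in 100 nM venetoclax. The labels give no dose for the parental cells, and venetoclax exposure, survival of the selection and descent from 1 cell cannot be told apart. Clones C1 and C5, with 2 libraries each, came from the same line under the same treatment and serve as a second comparison. Their comparisons with parental cells share the parental libraries. The labels do not say whether the libraries of a population came from separate cultures. The p-values thus measure only the spread between libraries of a population, which may be technical. That spread was pooled over all 8 KMS27 libraries.

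Venetoclax is a BH3 mimetic: it sits in the groove of BCL2 that normally holds BIM and related death activators, and so frees them to open the mitochondrial outer membrane. Myeloma cells with t(11;14) place CCND1 under the immunoglobulin heavy-chain enhancers, often depend on BCL2 and can keep some B cell features. As plasma cells they also carry a large endoplasmic reticulum, in which antibody chains are folded, glycosylated and sent to the Golgi.

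Whole-number counts were given for 14560 gene symbols, of which 14088 were tested. The clone B5 libraries held 22078324 and 20257318 counts and the parental libraries 26653196 and 26632039. Levels are given as CPM, a gene's counts as a share of its library after TMM scaling, on which 3 counts equalled 0.125 and 0.160 CPM in clone B5, against 0.109 and 0.117 CPM in parental cells. Adjusted p-values come from edgeR's quasi-likelihood test over all genes tested, with Benjamini-Hochberg adjustment and a threshold of 0.05, and a gene past it is called. Of the plasma cell markers 9 of 10 were listed, and their summed level was 6903 and 9049 CPM in clone B5, against 9595 and 11345 CPM in parental cells. Few markers of other cells were listed (2 of 8 for T cells, 2 of 6 for natural killer cells, 1 of 9 for myeloid cells, 0 of 5 for erythroid cells and 2 of 7 for stromal cells). The T cell markers, CD3E and TRAC, summed to 4.91 and 5.21 CPM in clone B5, against 9.18 and 10.4 CPM in parental cells, and the myeloid marker ITGAM had 0.666 and 0.532 CPM in clone B5, against 0.0363 and 0.0780 CPM in parental cells. Of the natural killer markers NKG7 had 0.374 and 0.744 CPM in clone B5, against 0 and 0.0780 CPM in parental cells, while NCAM1, which myeloma cells often carry, had 156 and 141 CPM in clone B5, against 131 and 120.0 CPM in parental cells. VIM, also a gene of many cultured cells, was the stromal marker with tested counts, at 492 and 690.1 CPM in clone B5, against 391 and 409 CPM in parental cells. Their part in the results was not tested.

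In clone B5 1523 genes were higher and 1436 lower than in parental cells, 21.0% of the genes tested (10.8% higher and 10.2% lower). Of these, 486 rose and 538 fell over 2-fold, and 183 rose and 240 fell over 4-fold. The median log2 fold change of all genes was 0.00. All 2959 called genes had both clone B5 libraries outside the range of the parental libraries, as did 56.4% of all genes tested. The spread of each gene was pooled over all 8 libraries of the line, although the clone B5 libraries differed most from each other. With only the 4 libraries of the comparison fitted, 1153 genes were called. The number of calls in the whole fit also depended on single libraries. It was 5032 without the first clone B5 library, 3014 without the second, 1224 without the first parental library and 1360 without the second, and 982 genes (452 higher and 530 lower) were called each time. Fewer cells expressing a gene and less of its RNA per cell cannot be told apart in these bulk libraries.

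The largest rises among called genes with a mean of at least 3 log2 CPM over the 8 libraries included matrix genes and surface receptors. COL6A3, a chain of collagen VI (ENSG00000163359.15, chr2:237324003-237414375, GRCh38), had 295 and 235 CPM in clone B5, against 9.03 and 8.27 CPM in parental cells (log2 fold change 4.94, SE 0.17, adjusted p = 1.66e-06). HAS2, which makes the matrix polymer hyaluronan (chr8:121612116-121641390), had 170.3 and 168 CPM in clone B5, against 10.1 and 8.62 CPM in parental cells (log2 fold change 4.17, SE 0.18, adjusted p = 4.05e-06). Both clone B5 libraries lay far above both parental libraries for each gene. TP63, a transcription factor known from epithelial development (chr3:189631416-189897279), had 109 and 109 CPM in clone B5, against 11.3 and 10.9 CPM in parental cells (log2 fold change 3.30, SE 0.12, adjusted p = 1.66e-06). GPR15, a homing receptor of lymphocytes, had 52.1 and 50.9 CPM in clone B5, against 3.63 and 3.74 CPM in parental cells (log2 fold change 3.80, SE 0.42, adjusted p = 0.000456). IL2RB, the beta chain of the interleukin 2 and 15 receptors, had 20.9 and 20.6 CPM in clone B5, against 1.96 and 1.37 CPM in parental cells (log2 fold change 3.63, SE 0.21, adjusted p = 1.79e-05). None of these 5 genes had overlapping groups, which was a condition of their choice and held for every called gene. The same set of 12 largest rises also held LHFPL2 (3.47), SCCPDH (3.29), FAM120C (3.19), the noncoding RNA PRCAT47 (2.98) and 3 class II antigen genes described with their list, the first 4 given as log2 fold changes, with adjusted p-values between 4.05e-06 and 4.88e-05.

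**Figure D1:**
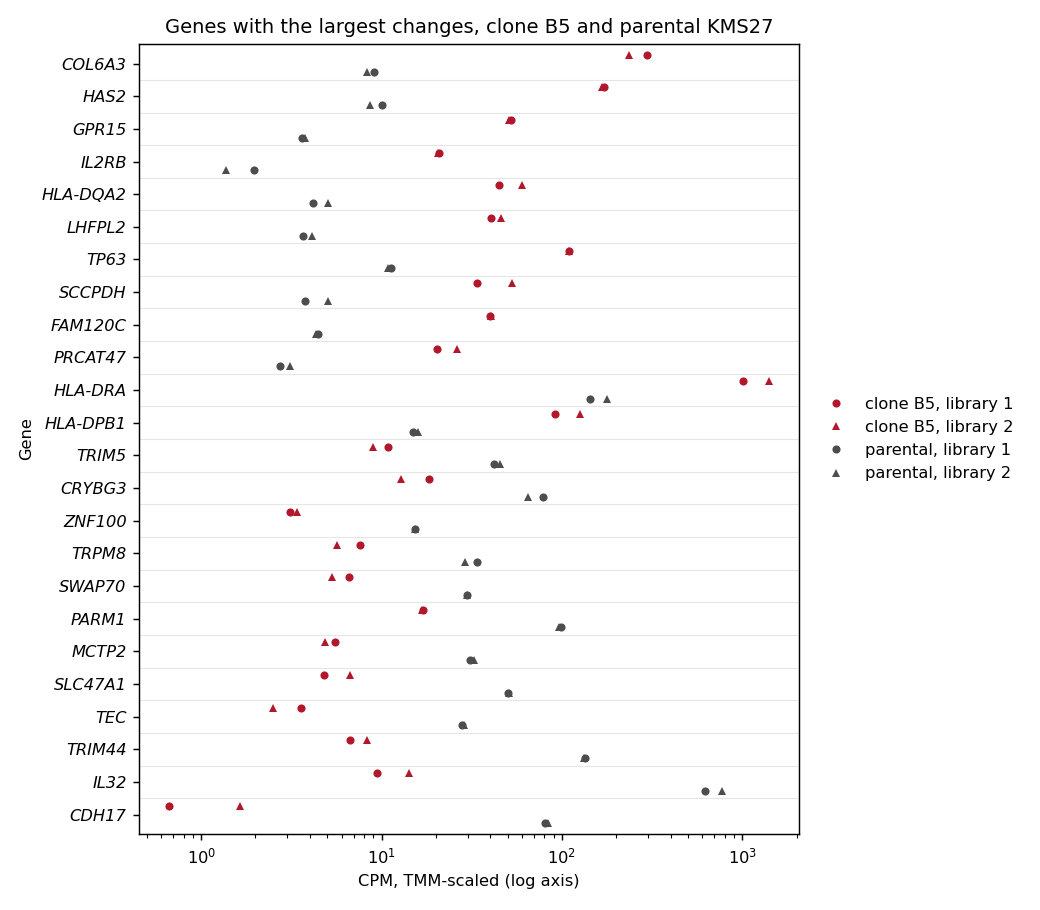
Level of the 24 genes named for the size of their change in clone B5, 12 in each direction, as TMM-scaled CPM on a log axis, with 1 point per library (circles library 1, triangles library 2; clone B5 red, parental grey). COL6A3 sits at 295 and 235 CPM in clone B5, against 9.03 and 8.27 CPM in parental cells, and CDH17 at 0.666 and 1.65 CPM in clone B5, against 80.05 and 84.02 CPM in parental cells.

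Among called genes of that mean level the largest fall was that of CDH17. CDH17, an adhesion molecule of the cadherin family (chr8:94127171-94217303), had 0.666 and 1.65 CPM in clone B5, against 80.05 and 84.02 CPM in parental cells (log2 fold change -6.20, SE 0.29, adjusted p = 6.27e-06), so that little of its RNA was left. IL32, a cytokine of lymphoid cells (chr16:3065297-3082192), had 9.44 and 14.1 CPM in clone B5, against 624 and 769 CPM in parental cells (log2 fold change -5.89, SE 0.38, adjusted p = 2.86e-05). TRIM44, of the tripartite motif family (chr11:35662805-35818007), had 6.70 and 8.35 CPM in clone B5, against 135 and 132 CPM in parental cells (log2 fold change -4.16, SE 0.14, adjusted p = 1.66e-06). TEC, a cytoplasmic tyrosine kinase related to BTK (chr4:48135783-48269864), had 3.58 and 2.50 CPM in clone B5, against 27.9 and 28.6 CPM in parental cells (log2 fold change -3.20, SE 0.18, adjusted p = 1.79e-05). In all 4 genes the clone B5 libraries lay below both parental libraries, as the rule of their choice required. SLC47A1, an efflux transporter of organic cations, fell by 3.16 on the log2 scale, and MCTP2, PARM1, SWAP70, TRPM8, ZNF100, CRYBG3 and TRIM5 fell by 2.61 to 2.14. TRIM44 and TRIM5 lie on chromosome 11, as does SWAP70, and TEC lies on chromosome 4.

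Some genes went to or near 0 counts. PLA2G16, a phospholipase, had 0 counts in both clone B5 libraries, against 336 and 340 counts in the parental libraries. It was 181-fold lower when 3 counts over the population stand for the floor, and its counting interval began at 147-fold. LRRK1, a kinase, had 0 counts in both clone B5 libraries, against 229 and 183 in the parental libraries. With that floor it was 111-fold lower, and its counting interval began at 89.5-fold. ANKS6 had 0 counts in both clone B5 libraries, against 194 and 124 in the parental libraries. With the same floor it was 85.3-fold lower, and its counting interval began at 69.0-fold. KIAA1217 had 0 and 1 counts in clone B5, against 240 and 173 in parental cells, a 333-fold fall with a counting interval of 59.4 to 13166. SHROOM3 had 0 and 2 counts in clone B5, against 212 and 165 in parental cells, a 152-fold fall (41.7 to 1258). In all, 18 genes had at most 3 counts over the clone B5 libraries and at least 50 in each parental library, and 2 had the reverse. Both of these are adaptor genes of leukocytes: LCP2, which encodes SLP-76, had 135 and 145 counts in clone B5, against 2 and 1 in parental cells, and SNX20 had 120 and 83 in clone B5, against 0 and 1 in parental cells. Among the 18 was PIK3CD, the leukocyte catalytic subunit of phosphoinositide 3-kinase, with 0 counts in both clone B5 libraries, against 86 and 79 in the parental libraries. These ratios cover counting error only. Every listed gene had at least 5 counts in at least 4 libraries. A gene on in clone B5 alone, or in parental cells alone, could thus not be among the 18 or the 2.

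BCL2, the target of venetoclax, was at 199.9 and 193 CPM in clone B5, against 198 and 199 CPM in parental cells (log2 fold change -0.01, SE 0.11, adjusted p = 0.943), and its groups overlapped. The other survival members that were tested were not called either. MCL1 was at 571 and 577 CPM in clone B5, against 515 and 506 CPM in parental cells (adjusted p = 0.343). BCL2L1, which encodes BCL-XL, was at 17.3 and 25.9 CPM in clone B5, against 16.8 and 18.4 CPM in parental cells (adjusted p = 0.297). BCL2L2 was at 23.7 and 21.00 CPM in clone B5, against 23.8 and 21.6 CPM in parental cells (adjusted p = 0.918). The list of survival members had 0 of 4 genes called, with a median log2 fold change of 0.08. BCL2L1 differed between the clone B5 libraries, and without the first clone B5 library the list had 1 gene called higher. Among the 9 death-promoting members 2 were higher and 2 lower (22.2% each, beside 10.8% and 10.2% of all genes), with a median of -0.21. The counts were 2 higher and 1 lower without the first clone B5 library, and 1 higher and 0 lower without either parental library. BCL2L11, which encodes the activator BIM, had 23.2 and 24.03 CPM in clone B5, against 12.7 and 12.9 CPM in parental cells (log2 fold change 0.88, SE 0.15, adjusted p = 0.0036). Its groups were separate, as in every called gene. PMAIP1, which encodes the MCL1 antagonist NOXA, had 91.7 and 92.8 CPM in clone B5, against 66.3 and 67.4 CPM in parental cells (log2 fold change 0.47, SE 0.10, adjusted p = 0.0105). The sensitizer gene BMF had 194 and 178 CPM in clone B5, against 254 and 254 CPM in parental cells (log2 fold change -0.45, SE 0.11, adjusted p = 0.0171). Neither of these 2 kept its call without the first parental library (adjusted p = 0.0839 and 0.122) or without the second parental library (adjusted p = 0.0743 and 0.104). BAD was lower (adjusted p = 0.0471) and lost its call without the first clone B5 library (0.114) and without either parental library (0.0978 and 0.209). The pore formers BAX and BAK1 were not called, at 30.6 and 32.1 CPM in clone B5, against 35.7 and 36.9 CPM in parental cells, and at 23.3 and 29.3 CPM in clone B5, against 21.2 and 25.7 CPM in parental cells.

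Genes of the death receptor and ligand list were more often higher than the 10.8% of all genes. Of 10 tested, 6 were higher and 1 lower, with a median log2 fold change of 0.56. The list also holds ligand and signalling genes, such as RIPK1. TNFRSF1B, which encodes the second receptor of tumour necrosis factor, rose most, with 5.53 and 4.79 CPM in clone B5, against 0.979 and 0.897 CPM in parental cells (log2 fold change 2.46, SE 0.31, adjusted p = 0.000974). It was also the single member called whichever library was left out: without the first parental library the count was 1 higher and without the second parental library it was 3. There were 2 lower without the first clone B5 library and 0 lower without each of the other 3. FAS had 97.3 and 88.4 CPM in clone B5, against 57.6 and 60.6 CPM in parental cells (adjusted p = 0.00877, and 0.0666 without the first parental library).

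The class II antigen presentation genes formed the list with the largest median change among lists of 10 or more genes. These genes encode the alpha and beta chains that show peptides to helper T cells, the loading factors HLA-DM and HLA-DO, the invariant chain CD74 and the master regulator CIITA. Of 17 tested, 14 were higher and 1 was lower (82.4% and 5.88%, beside 10.8% and 10.2% of all genes), with a median log2 fold change of 2.33. HLA-DRA (chr6:32439842-32445046) had 1008 and 1401 CPM in clone B5, against 143 and 177 CPM in parental cells (log2 fold change 2.91, SE 0.22, adjusted p = 5.96e-05). HLA-DPB1 had 91.7 and 126 CPM in clone B5, against 14.98 and 15.99 CPM in parental cells (log2 fold change 2.81, SE 0.19, adjusted p = 3.1e-05). HLA-DQB1 had 62.7 and 83.6 CPM in clone B5, against 9.83 and 11.9 CPM in parental cells (log2 fold change 2.75, SE 0.22, adjusted p = 8.83e-05). In each of these chains the lower clone B5 library stood above the higher parental library several times over. HLA-DRB1 rose by 2.80 and HLA-DRB5 by 2.63, and HLA-DQA1 by 2.75 and HLA-DQA2 by 3.51, on the log2 scale, although near-identical copies within each pair may share reads. The loading factor chains HLA-DMA, HLA-DMB and HLA-DOA rose by 2.04, 2.57 and 2.33. CD74 had 1711 and 1915 CPM in clone B5, against 641 and 697 CPM in parental cells (log2 fold change 1.44, SE 0.18, adjusted p = 0.000901). CIITA had 70.6 and 34.5 CPM in clone B5, against 20.96 and 15.6 CPM in parental cells (log2 fold change 1.53, SE 0.31, adjusted p = 0.00837), with an adjusted p of 0.0591 without the second parental library. LGMN, a lysosomal protease that trims antigens, was the member that fell, with 134 and 127 CPM in clone B5, against 272 and 285 CPM in parental cells (log2 fold change -1.09, SE 0.20, adjusted p = 0.00585). As a share of all counts the list took 0.501% and 0.528% in clone B5, against 0.168% and 0.172% in parental cells. Other lysosomal protease genes went both ways. CTSB rose (189 and 219 CPM in clone B5, against 88.97 and 92.99 CPM in parental cells, log2 fold change 1.17, adjusted p = 0.00431), while CTSC (log2 fold change -0.63, adjusted p = 0.00977) and CTSZ (log2 fold change -0.74, adjusted p = 0.0104) were lower and lost their calls without the second parental library (adjusted p of 0.0866 and 0.063). CTSS was not called (159.6 and 199 CPM in clone B5, against 195 and 214 CPM in parental cells). In the lysosome and autophagy list 8 of 35 genes (22.9%) were higher and 6 (17.1%) lower, beside 10.8% and 10.2% of all genes.

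Class I presentation changed less, with a median of 0.22. Of its 21 genes 4 were higher, beside 10.8% of all genes, and 2 were lower. The share lower, 9.52%, was near the 10.2% of all genes. HLA-B had 1326 and 1638 CPM in clone B5, against 755 and 838 CPM in parental cells (log2 fold change 0.90, adjusted p = 0.00531). Without the first parental library the counts were 0 and 0, and HLA-B had an adjusted p of 0.0649. Without the first clone B5 library there were 9 higher and 3 lower, and without the second parental library there were 4 and 0.

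Interferon-stimulated genes went the other way. Of 31 tested, 13 were lower and 1 was higher, with a median log2 fold change of -0.62, beside 10.2% of all genes lower. SAMD9L, an interferon-induced growth restraint factor, had 96.4 and 62.00 CPM in clone B5, against 197 and 178 CPM in parental cells (log2 fold change -1.24, SE 0.21, adjusted p = 0.00428). The exonuclease gene ISG20 had 3.16 and 3.35 CPM in clone B5, against 9.47 and 10.6 CPM in parental cells (log2 fold change -1.63, SE 0.29, adjusted p = 0.00495). For both genes the clone B5 libraries were below the parental ones, and groups were separate in every called gene. The member that rose was CXCL10, an interferon-induced chemokine, at 2.58 and 3.83 CPM in clone B5, against 0.145 and 0.390 CPM in parental cells (log2 fold change 3.57, SE 0.44, adjusted p = 0.000802). The number lower was 5 without the first parental library and 6 without the second. Against the mean of clones C1 and C5 5 members were lower and 1 was higher, and the medians against parental cells were -0.40 for C1 and 0.37 for C5.

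Genes of the secretory pathway were more often lower than the 10.2% of all genes, from folding to export. Of 28 genes for folding in the endoplasmic reticulum 13 were lower and 0 higher, with a median log2 fold change of -0.40. Without the first parental library this count was 6 and without the second parental library it was 5, and the median stayed between -0.33 and -0.49 whichever library was left out. PDIA4, a disulfide isomerase, had 497 and 495 CPM in clone B5, against 870.5 and 923 CPM in parental cells (log2 fold change -0.85, SE 0.13, adjusted p = 0.00241). MANF, a secreted folding factor induced by stress of the endoplasmic reticulum, had 118 and 144 CPM in clone B5, against 226 and 256 CPM in parental cells (log2 fold change -0.88, SE 0.15, adjusted p = 0.00355). The prolyl isomerase gene FKBP2 had 38.3 and 52.4 CPM in clone B5, against 90.9 and 100.4 CPM in parental cells (log2 fold change -1.08, SE 0.16, adjusted p = 0.00181). None of the 3 overlapped between groups, and neither did any other called gene. The abundant chaperones moved with them: HSPA5, which encodes BiP, had 1742 and 1913 CPM in clone B5, against 2973 and 3263 CPM in parental cells (log2 fold change -0.77, SE 0.15, adjusted p = 0.00687). HSP90B1, which encodes GRP94, had 1954 and 1793 CPM in clone B5, against 3337 and 3345 CPM in parental cells (log2 fold change -0.83, SE 0.17, adjusted p = 0.00883). Their adjusted p-values without the second parental library were 0.0627 and 0.0536, and HSP90B1 had 0.0643 without the first parental library.

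In degradation of misfolded proteins 5 of 16 genes were lower and 1 was higher. SYVN1, the ubiquitin ligase of that pathway, had 88.7 and 74.4 CPM in clone B5, against 222 and 206 CPM in parental cells (log2 fold change -1.39, SE 0.12, adjusted p = 0.000112). EDEM1, which picks out misfolded glycoproteins, had 489 and 379 CPM in clone B5, against 944 and 858 CPM in parental cells (log2 fold change -1.05, SE 0.15, adjusted p = 0.00189). Translocation and N-glycosylation genes had 9 of 31 lower and 1 higher, led by SRPRA, a subunit of the signal recognition particle receptor, at 364 and 397 CPM in clone B5, against 713 and 753 CPM in parental cells (log2 fold change -0.95, SE 0.13, adjusted p = 0.0012). Genes of transport to the Golgi had 11 of 31 lower and 0 higher, with a median of -0.31. SEC24D, a coat protein of export vesicles, had 120.2 and 118 CPM in clone B5, against 220.2 and 222 CPM in parental cells (log2 fold change -0.89, SE 0.11, adjusted p = 0.000636). The cargo receptor gene LMAN1 had 426 and 414 CPM in clone B5, against 744 and 721 CPM in parental cells (log2 fold change -0.80, SE 0.14, adjusted p = 0.00484). In each of these genes the groups were separate, as in every called gene. The counts of lower genes in the 3 lists were 2, 4 and 4 without the first parental library, 3, 1 and 3 without the second parental library, and 5, 14 and 12 without the second clone B5 library. Without the first clone B5 library, 3, 4 and 3 genes of these lists were higher, and without the first parental library 0 were. FKBP2, SYVN1, SRPRA and STX5, of the transport list, lie on chromosome 11, whose genes had a median of -0.59. Without the genes of chromosomes 4, 8, 11 and X, an alternative chosen after the data were seen, 11 of 26 folding genes, 4 of 14 degradation genes, 4 of 23 translocation and N-glycosylation genes and 6 of 25 transport genes were lower. The median of the translocation and N-glycosylation list was then -0.12, and -0.21 with them. The medians of the folding and transport lists were -0.36 and -0.16.

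Genes for sensors and factors of the unfolded protein response were called about as often as all genes (21.4%, beside 21.0%). Of 14 genes for sensors and factors 2 were lower and 1 was higher, with 3 lower without either clone B5 library, 3 higher without the first of them, and 1 lower without either parental library. EIF2AK3, which encodes the sensor kinase PERK, had 151 and 135 CPM in clone B5, against 238 and 225 CPM in parental cells (log2 fold change -0.69, SE 0.11, adjusted p = 0.00303), whereas the groups overlapped for ERN1, which encodes IRE1, at 292 and 181 CPM in clone B5, against 323 and 284 CPM in parental cells (adjusted p = 0.247). XBP1, the transcription factor that IRE1 activates by splicing, was at 688 and 850.1 CPM in clone B5, against 687 and 800.3 CPM in parental cells (adjusted p = 0.869). MBTPS2, a protease that releases ATF6 and the SREBP factors, was the member that rose, at 82.7 and 89.97 CPM in clone B5, against 53.4 and 47.9 CPM in parental cells (log2 fold change 0.77, SE 0.11, adjusted p = 0.00203), and it lies on the X chromosome.

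Promoters of folding genes are known to carry the endoplasmic reticulum stress element, which is bound by NF-Y and by ATF6. It was searched on both strands as CCAAT and CCACG with 9 bases between them, in the window from 250 bases before to 50 bases after each gene's start in RefSeq (GRCh38.p14). The letters were found in 25 of 27305 genes (0.0916%) and in 7 of the 26 folding genes that matched the table. Of the 13 folding genes called lower 4 held it, and so did 3 of the 13 not called. The stretches are shown because the element stands in both kinds of gene, with the element in capitals.
ERO1B (chr1:236282175-236282208, plus strand): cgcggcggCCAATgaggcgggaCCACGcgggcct
HSPA5 (chr9:125241383-125241417, minus strand): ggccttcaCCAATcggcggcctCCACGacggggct
HSP90B1, first (chr12:103930208-103930242, plus strand): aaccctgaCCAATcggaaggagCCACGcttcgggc
HSP90B1, second (chr12:103930313-103930347, minus strand): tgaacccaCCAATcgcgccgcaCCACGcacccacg
CALR (chr19:12938376-12938410, minus strand): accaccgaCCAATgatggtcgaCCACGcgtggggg
PDIA6 (chr2:10812845-10812879, minus strand): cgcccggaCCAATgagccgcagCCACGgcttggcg
CANX (chr5:179698770-179698804, plus strand): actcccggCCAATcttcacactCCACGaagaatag
CRELD2 (chr22:49918546-49918580, minus strand): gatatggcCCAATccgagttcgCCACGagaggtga

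The first 4 genes named in these lines were lower, with log2 fold changes of -0.68 (SE 0.14) for the oxidase gene ERO1B, -0.77 (SE 0.15) for HSPA5, -0.83 (SE 0.17) for HSP90B1 and -0.68 (SE 0.18) for the lectin chaperone calreticulin, CALR. CALR lost its call without either parental library (adjusted p = 0.101 and 0.155), and ERO1B without the first parental library (0.0684). The last 3 were not called, at -0.10 (SE 0.17) for PDIA6, -0.06 (SE 0.17) for the membrane chaperone calnexin, CANX, and -0.29 (SE 0.15) for CRELD2. A match of letters in a window is a description and shows no binding.

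Plasma cell identity genes held 7 lower and 0 higher of 22 (31.8% lower, beside 10.2% of all genes). Their median was -0.19, and it was -0.05 without the first clone B5 library and -0.33 without the second clone B5 library. The counts were 2 higher and 7 lower without the first clone B5 library, and 0 higher and 3 lower without the second parental library. MZB1, a chaperone of antibody assembly, had 165 and 144 CPM in clone B5, against 266 and 273 CPM in parental cells (log2 fold change -0.80, SE 0.13, adjusted p = 0.00321). BHLHA15, a transcription factor of secretory cells also called MIST1, had 6.16 and 5.80 CPM in clone B5, against 11.97 and 12.3 CPM in parental cells (log2 fold change -1.02, SE 0.17, adjusted p = 0.0034). Both were lower in each clone B5 library, and groups were separate in every called gene. The regulators of the plasma cell state were not called: IRF4 was at 1789 and 1925 CPM in clone B5, against 1825 and 1770.4 CPM in parental cells, and PRDM1, which encodes BLIMP1, at 276 and 278 CPM in clone B5, against 275 and 261 CPM in parental cells. CCND1, the oncogene of the translocation, was at 1175 and 1031 CPM in clone B5, against 1084 and 1024 CPM in parental cells (adjusted p = 0.781).

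B cell identity genes moved in both directions, with 5 of 20 higher and 5 lower, and with 3 and 3 without the second parental library. In the whole fit 25.0% of the list were higher and 25.0% lower, beside 10.8% and 10.2% of all genes. PAX5, which sets B cell identity, had 26.1 and 24.7 CPM in clone B5, against 14.5 and 13.7 CPM in parental cells (log2 fold change 0.85, SE 0.12, adjusted p = 0.00144). SPIB, a factor of the ETS family, had 12.3 and 14.8 CPM in clone B5, against 5.40 and 7.10 CPM in parental cells (log2 fold change 1.12, SE 0.19, adjusted p = 0.00383). The kinase BTK, which relays the B cell receptor signal, had 40.1 and 43.2 CPM in clone B5, against 14.2 and 15.3 CPM in parental cells (adjusted p = 5.2e-05). The upstream kinase SYK had 25.3 and 34.1 CPM in clone B5, against 16.5 and 14.2 CPM in parental cells (log2 fold change 0.95, SE 0.16, adjusted p = 0.00427). Against these rises, CD37, a surface tetraspanin, had 0.208 and 0.160 CPM in clone B5, against 9.21 and 9.56 CPM in parental cells (log2 fold change -5.62, SE 0.34, adjusted p = 2.09e-05). The SRC-family kinase gene BLK had 0.915 and 1.17 CPM in clone B5, against 13.6 and 12.8 CPM in parental cells (log2 fold change -3.67, SE 0.29, adjusted p = 7.89e-05). BANK1, a B cell scaffold, had 52.9 and 52.8 CPM in clone B5, against 93.2 and 105 CPM in parental cells (log2 fold change -0.91, SE 0.12, adjusted p = 0.00116). All 7 genes had separate groups, as had every called gene.

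Antibody genes went both ways, with 12.5% called higher and 18.8% lower, beside 10.8% and 10.2% of all genes. Of 32 immunoglobulin genes 6 were lower and 4 higher, with a median of -0.55, and the list took 2.85% and 3.58% of counts in clone B5, against 4.60% and 5.04% in parental cells. IGHG3 had 37.7 and 39.4 CPM in clone B5, against 58.7 and 59.5 CPM in parental cells (log2 fold change -0.62, SE 0.10, adjusted p = 0.00309). The light-chain gene IGLC2 had 5.08 and 4.52 CPM in clone B5, against 1.05 and 1.48 CPM in parental cells (log2 fold change 1.92, SE 0.27, adjusted p = 0.00155). Reads shared among immunoglobulin genes make single members uncertain. Without the second clone B5 library the number lower was 12, and without either parental library 3 were lower and 1 was higher.

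Of 17 genes for targets of antibodies and cell therapies in myeloma 3 were higher and 2 lower (29.4%), against 21.0% of all genes. ITGB7, described with the adhesion genes, and the invariant chain gene CD74 were higher whichever library was left out. CD47, a signal that restrains phagocytes, was higher at 94.7 and 106 CPM in clone B5, against 71.2 and 69.9 CPM in parental cells (log2 fold change 0.51, adjusted p = 0.0174), and CD59, an inhibitor of complement, was lower at 47.9 and 63.4 CPM in clone B5, against 86.5 and 103 CPM in parental cells (log2 fold change -0.77, adjusted p = 0.00686). Both lost their calls without the second parental library (adjusted p of 0.104 and 0.0571). TNFRSF17, which encodes BCMA, was at 112 and 145 CPM in clone B5, against 97.7 and 116 CPM in parental cells (adjusted p = 0.261). SLAMF7 was at 801 and 809 CPM in clone B5, against 992 and 1142 CPM in parental cells (adjusted p = 0.0657). CD38 was lower, at 79.9 and 74.9 CPM in clone B5, against 106 and 111 CPM in parental cells (log2 fold change -0.49, SE 0.13, adjusted p = 0.0236), but it lost its call without the first (0.1) and the second parental library (0.126). Of 13 genes for the cereblon ligase and its substrates 2 were higher and 2 lower (30.8%). Without the genes of chromosomes 4, 8, 11 and X, 0 of 9 were higher and 1 was lower. This alternative was chosen after the data were seen. ZFP91, a substrate of the ligase, was lower at 123 and 134 CPM in clone B5, against 238 and 238 CPM in parental cells (log2 fold change -0.89, SE 0.12, adjusted p = 0.00131), whichever library was left out. CUL4B, the scaffold of the ligase, rose by 0.57 and COPS5, of the COP9 signalosome, by 0.45 on the log2 scale, and the substrate gene ZMYM2 was lower with a log2 fold change of -0.45, all 3 without a call when the first parental library was left out. CRBN, the substrate receptor that lenalidomide binds, was at 33.99 and 37.2 CPM in clone B5, against 29.5 and 34.4 CPM in parental cells (adjusted p = 0.456). Its substrate IKZF1 was at 78.6 and 91.9 CPM in clone B5, against 76.2 and 78.99 CPM in parental cells (adjusted p = 0.45). IKZF3 differed between the clone B5 libraries, at 408 and 183 CPM in clone B5, against 366 and 295 CPM in parental cells (adjusted p = 0.751).

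Receptors of cell traffic were higher where they were called. Of 14 receptors for chemokines and lipid mediators 7 were higher and 0 lower, with a median of 0.43. Without the first clone B5 library there were 8 higher and 2 lower, and without the second 6 and 1. CCR7, which guides lymphocytes into lymph nodes, had 20.3 and 22.4 CPM in clone B5, against 3.30 and 3.04 CPM in parental cells (log2 fold change 2.75, SE 0.23, adjusted p = 0.000112). PTGER4, a receptor of prostaglandin E2, had 10.1 and 12.7 CPM in clone B5, against 0.979 and 0.780 CPM in parental cells (log2 fold change 3.68, SE 0.21, adjusted p = 1.68e-05). CXCR3, the receptor of CXCL10, stood at low levels of 2.75 and 3.03 CPM in clone B5, against 0.326 and 0.351 CPM in parental cells (log2 fold change 3.08, SE 0.37, adjusted p = 0.000678). S1PR1, which draws lymphocytes out of tissue, had 25.8 and 32.1 CPM in clone B5, against 12.6 and 14.7 CPM in parental cells (log2 fold change 1.08, SE 0.17, adjusted p = 0.00241). P2RY8, a receptor that confines germinal centre B cells, had 313 and 330.4 CPM in clone B5, against 146 and 143 CPM in parental cells (log2 fold change 1.16, SE 0.12, adjusted p = 0.000336). Each of these 5 was called whichever library was left out. Without the genes of chromosomes 4, 8, 11 and X, an alternative chosen after the data were seen, 6 of 13 receptors were higher. The median of the receptors was then 0.22. Genes without a single matched position were kept in this count and median. Cytokine and chemokine genes had 7 of 17 higher and 2 lower (41.2% and 11.8%, beside 10.8% and 10.2% of all genes), with a median of 0.53. CCL28, a mucosal chemokine, had 4.49 and 5.37 CPM in clone B5, against 1.23 and 1.60 CPM in parental cells (log2 fold change 1.80, SE 0.25, adjusted p = 0.00138). The counts were 2 higher and 1 lower without the first parental library, and 3 higher and 1 lower without the second parental library.

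In the adhesion and matrix list 9 of 29 genes were higher and 6 lower (31.0% and 20.7%, beside 10.8% and 10.2% of all genes). The counts were 5 and 3 without the first parental library, and 6 and 2 without the second parental library. CDH1, which encodes E-cadherin, had 26.1 and 26.5 CPM in clone B5, against 8.92 and 8.70 CPM in parental cells (log2 fold change 1.58, SE 0.13, adjusted p = 9.02e-05). CD99, a surface glycoprotein, had 43.3 and 57.4 CPM in clone B5, against 12.9 and 14.5 CPM in parental cells (log2 fold change 1.88, SE 0.16, adjusted p = 0.000111). ITGB7, an integrin chain of plasma cell homing, had 50.5 and 57.7 CPM in clone B5, against 29.4 and 29.4 CPM in parental cells (log2 fold change 0.88, SE 0.14, adjusted p = 0.00291). ITGA4, which pairs with it, had 113 and 90.3 CPM in clone B5, against 206 and 195 CPM in parental cells (log2 fold change -0.98, SE 0.18, adjusted p = 0.00518), the opposite direction. IL6R, the receptor of the myeloma growth factor interleukin 6, had 3.58 and 2.07 CPM in clone B5, against 11.1 and 12.01 CPM in parental cells (log2 fold change -2.02, SE 0.29, adjusted p = 0.00185).

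Proliferation genes were more often higher than the 10.8% of all genes, at 42.9% of the S phase list and 57.4% of the G2/M list. In the list for DNA replication and S phase 21 of 49 were higher and 3 lower, with a median of 0.37. RRM2, a subunit of ribonucleotide reductase (chr2:10120698-10131419), had 2639 and 3102 CPM in clone B5, against 611 and 685 CPM in parental cells (log2 fold change 2.15, SE 0.17, adjusted p = 8.11e-05). POLA1, the catalytic subunit of DNA polymerase alpha, had 178 and 197 CPM in clone B5, against 96.8 and 96.5 CPM in parental cells (log2 fold change 0.96, SE 0.12, adjusted p = 0.000739). CCNE2, a cyclin of S phase entry, had 62.9 and 57.96 CPM in clone B5, against 28.9 and 26.8 CPM in parental cells (log2 fold change 1.12, SE 0.13, adjusted p = 0.000574). In all 3 the groups were separate, as in every called gene. In the G2/M and mitosis list 27 of 47 were higher and 0 lower, with a median of 0.42. KIF11, a motor of the mitotic spindle, had 289 and 256 CPM in clone B5, against 158 and 156 CPM in parental cells (log2 fold change 0.80, SE 0.12, adjusted p = 0.00189). CCNB2, a mitotic cyclin, had 111 and 132 CPM in clone B5, against 67.97 and 72.2 CPM in parental cells (log2 fold change 0.79, SE 0.11, adjusted p = 0.00158). NDC80, which ties kinetochores to microtubules, had 103 and 104 CPM in clone B5, against 62.6 and 64.5 CPM in parental cells (log2 fold change 0.70, SE 0.10, adjusted p = 0.00157). The numbers higher in the S phase and G2/M lists were 6 and 5 without the first parental library, and 10 and 12 without the second parental library. Without the genes of chromosomes 4, 8, 11 and X, 17 of 38 and 25 of 42 were higher. MKI67, which encodes the proliferation antigen Ki-67, was not called, at 1215 and 275 CPM in clone B5, against 1004 and 809.7 CPM in parental cells. It was high in the first clone B5 library and low in the second. MYC (chr8:127735434-127741434) was lower, at 50.2 and 54.6 CPM in clone B5, against 113 and 115 CPM in parental cells (log2 fold change -1.12, SE 0.11, adjusted p = 0.000247), and so was its antagonist MXI1 (log2 fold change -0.93, adjusted p = 0.00463). In the MYC network list 6 of 38 genes were lower and 2 higher (21.1%, beside 21.0% of all genes), with a median of -0.01. Without the first clone B5 library it had 7 higher and 8 lower, and without the second 1 and 8.

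Early response genes and feedback regulators of the MAPK pathway had 9 of 31 higher and 6 lower, with 4 and 4 without the first parental library and 4 and 5 without the second. FOS, a subunit of the AP-1 factor, had 23.5 and 13.5 CPM in clone B5, against 0.653 and 0.897 CPM in parental cells (log2 fold change 4.58, SE 0.55, adjusted p = 0.000723). DUSP6, a phosphatase that switches off ERK, had 10.2 and 11.6 CPM in clone B5, against 1.85 and 2.81 CPM in parental cells (log2 fold change 2.23, SE 0.23, adjusted p = 0.000299). KLF2, a factor of lymphocyte quiescence, had 1.54 and 1.86 CPM in clone B5, against 15.3 and 15.4 CPM in parental cells (log2 fold change -3.18, SE 0.35, adjusted p = 0.000446). The groups were apart in all 3, as in every called gene.

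Histone genes had 7 of 50 higher (14.0%, beside 10.8% of all genes) and 0 lower, with a median of 0.48, and 16 higher and 3 lower without the first clone B5 library. Without the first parental library 3 were higher and without the second 4. HIST1H2BG had 16.3 and 22.1 CPM in clone B5, against 3.95 and 3.39 CPM in parental cells (log2 fold change 2.38, SE 0.25, adjusted p = 0.000334).

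In cholesterol synthesis and uptake 9 of 25 genes were higher (36.0%, beside 10.8% of all genes) and 1 was lower, with a median of 0.40. SQLE, which oxidizes squalene, had 265 and 262 CPM in clone B5, against 128 and 137 CPM in parental cells (log2 fold change 0.99, SE 0.16, adjusted p = 0.00291). FDFT1, which makes squalene, had 222 and 303 CPM in clone B5, against 111 and 131 CPM in parental cells (log2 fold change 1.12, SE 0.20, adjusted p = 0.00462). HSD17B7 of the later pathway had 41.1 and 43.4 CPM in clone B5, against 21.4 and 24.6 CPM in parental cells (log2 fold change 0.88, SE 0.12, adjusted p = 0.00141). The clone B5 libraries were higher in each, and groups were separate in every called gene. SQLE and FDFT1 lie on chromosome 8. Without chromosomes 4, 8, 11 and X 4 of 17 genes were higher, and without the first parental library the number of all 25 was 4. SREBF1, a regulator of fatty acid genes, was lower, at 7.70 and 6.06 CPM in clone B5, against 17.5 and 15.95 CPM in parental cells (log2 fold change -1.28, SE 0.17, adjusted p = 0.00113).

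Glycolysis and lactate genes had 7 of 23 lower (30.4%, beside 10.2% of all genes) and 1 higher, although the median was 0.07. ENO2, the neuronal form of enolase, had 0.166 and 0.160 CPM in clone B5, against 18.6 and 17.8 CPM in parental cells (log2 fold change -6.76, SE 0.38, adjusted p = 1.68e-05), which leaves it near the level of 3 counts. ALDOC, an aldolase, had 12.1 and 16.7 CPM in clone B5, against 33.9 and 36.7 CPM in parental cells (log2 fold change -1.29, SE 0.20, adjusted p = 0.0024). PFKM, a phosphofructokinase, had 52.01 and 53.7 CPM in clone B5, against 92.96 and 102 CPM in parental cells (log2 fold change -0.89, SE 0.11, adjusted p = 0.000965). PFKFB3, which makes the activator of phosphofructokinase, rose, at 15.9 and 14.5 CPM in clone B5, against 2.94 and 2.89 CPM in parental cells (log2 fold change 2.39, SE 0.19, adjusted p = 8.34e-05). Without the first clone B5 library the list had 9 higher and 7 lower, so that its balance rested on that library. Lower genes numbered 3 without the first parental library and 4 without the second parental library. TXNIP, a repressor of glucose uptake, had 67.98 and 66.8 CPM in clone B5, against 198 and 213 CPM in parental cells (log2 fold change -1.61, SE 0.12, adjusted p = 6.12e-05). NQO1, a target of the oxidant sensor NRF2, had 116 and 163 CPM in clone B5, against 53.5 and 60.6 CPM in parental cells (log2 fold change 1.29, SE 0.17, adjusted p = 0.000965).

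**Figure D2:**
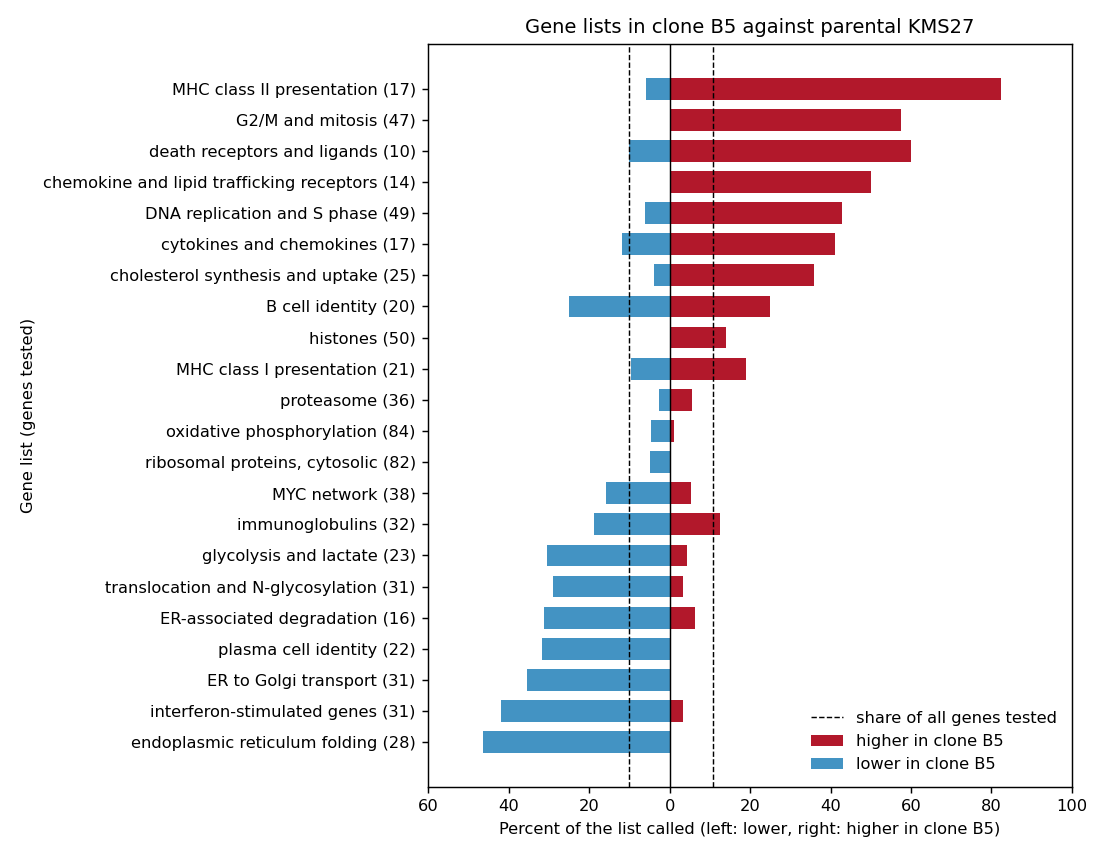
Percent of the tested genes of 22 lists that were called lower (blue, left) or higher (red, right) in clone B5 against parental cells, with the number of genes tested in brackets and dashed lines at the shares of all genes tested, 10.2% and 10.8%. Class II presentation reaches 14 of 17 genes higher, and folding in the endoplasmic reticulum 13 of 28 lower with 0 higher.

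The clone B5 libraries differed from each other more than those of any other population of the line. Among 7610 genes with a mean of at least 4 log2 CPM, 728 (9.57%) were over 1.5-fold apart between the clone B5 libraries, against 56 (0.736%) in clone C1, 21 (0.276%) in clone C5 and 51 (0.670%) in parental cells. The first library was higher in 390 of the 728 and the second in 338. Among the genes furthest apart, given as the first and the second clone B5 library, MKI67 had 1215 and 275 CPM, DST, a giant linker of the cytoskeleton, had 609 and 195 CPM, and GOLGB1, a large Golgi tether, had 201 and 65.3 CPM. CENPF, a large kinetochore protein, had 771 and 277 CPM, and its log2 fold change of 0.16 against parental cells was -0.74 without the first clone B5 library. Higher in the second library were short transcripts: the ribosomal protein gene RPL41 had 1231 and 2338 CPM and NDUFS5, a small subunit of respiratory complex I, had 113 and 212 CPM. Over 5 bins of 7302 protein-coding genes by transcript length, the median log2 ratio of the first to the second clone B5 library ran from -0.38 for transcripts of 359 to 2065 bases to 0.18 for those of 6067 to 34526 bases. Parental cells had the same order with a smaller span, from -0.22 to 0.12, as did clone C5, from -0.08 to 0.09. In clone C1 the medians stayed between -0.01 and 0.05. Spearman's rho between length and the library ratio was 0.59 in clone B5 and 0.65 in parental cells, across genes of single libraries and as a description. The median log2 fold change of clone B5 against parental cells was 0.07 in the bin of shortest transcripts and -0.08 in that of the longest, and its part in the results was not tested.

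**Figure D3:**
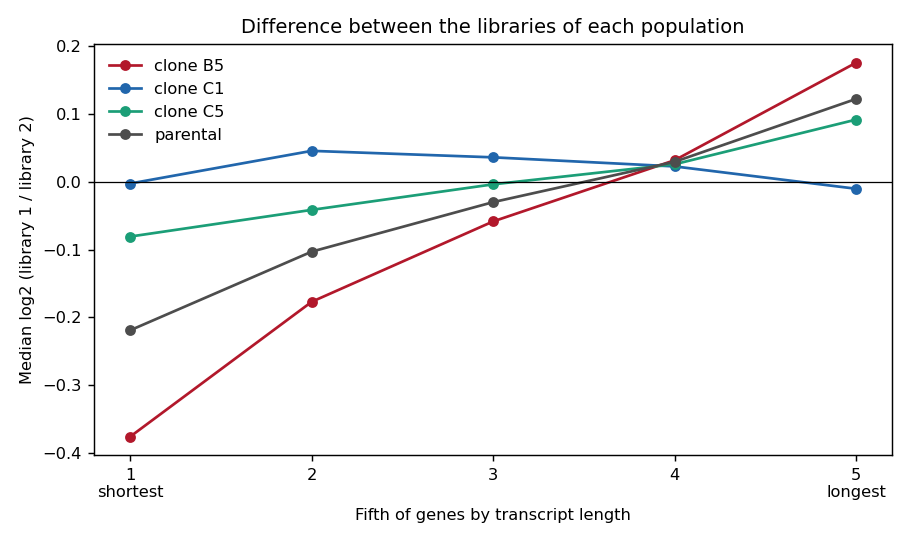
Median log2 ratio of library 1 to library 2 of each population (clone B5 red, clone C1 blue, clone C5 green, parental grey) over 5 bins of genes ordered by transcript length. The clone B5 line runs from -0.38 to 0.18 and the parental line from -0.22 to 0.12.

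Lists of short, abundant transcripts gave other counts with each clone B5 library. Cytosolic ribosomal protein genes took 7.60% and 10.5% of counts in clone B5, against 8.99% and 11.0% in parental cells. Of 82 tested, 4 were lower and 0 higher, but 13 were higher and 3 lower without the first clone B5 library, and 47 were lower and 0 higher without the second clone B5 library. The median log2 fold change was -0.16 in the whole fit, 0.14 without the first library and -0.54 without the second. Without the first parental library it was -0.32, and without the second parental library it was 0.01. Of the 4 that were lower in the whole fit (4.88%, beside 10.2% of all genes), RPL27A, RPS13 and RPLP2 lie on chromosome 11. Genes of oxidative phosphorylation had 1 of 84 higher and 4 lower, 24 higher and 3 lower without the first clone B5 library, and 2 higher and 17 lower without the second clone B5 library. Proteasome genes had 2 of 36 higher and 1 lower, 24 higher and 1 lower without the first clone B5 library, and 1 higher and 3 lower without the second clone B5 library. The class II list kept 14 higher and 1 lower without either clone B5 library.

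Against the mean of clones C1 and C5, a comparison that does not use the parental libraries, 701 genes were higher (4.98%) and 818 lower (5.81%) in clone B5. The calls numbered 2726 and 2480 without the first and the second clone B5 library, and between 546 and 919 without a library of the other clones. COL6A3 had 295 and 235 CPM in clone B5, against 20.1 and 24.9 CPM in clone C1 and 4.35 and 4.51 CPM in clone C5 (log2 difference 4.73, SE 0.13, adjusted p = 4.55e-07). HAS2 had 170.3 and 168 CPM in clone B5, against 4.25 and 6.34 CPM in clone C1 and 9.20 and 8.94 CPM in clone C5 (log2 difference 4.62, SE 0.14, adjusted p = 6.59e-07). CNTN1, a neural adhesion molecule, had 160.5 and 169.5 CPM in clone B5, against 22.00 and 26.96 CPM in clone C1 and 7.24 and 9.30 CPM in clone C5 (log2 difference 3.54, SE 0.12, adjusted p = 1.04e-06), and its parental level of 55.2 and 55.7 CPM lay between the clones. TP63 had 109 and 109 CPM in clone B5, against 14.3 and 16.3 CPM in clone C1 and 47.7 and 49.4 CPM in clone C5 (log2 difference 2.00, SE 0.09, adjusted p = 5.61e-06). CDH17 had 0.666 and 1.65 CPM in clone B5, against 133 and 100.4 CPM in clone C1 and 107 and 99.7 CPM in clone C5 (log2 difference -6.62, SE 0.28, adjusted p = 5.44e-06). Parental cells had 80.05 and 84.02 CPM, and neither of the other clones was called against them (adjusted p = 0.094 for C1 and 0.28 for C5). TEC had 3.58 and 2.50 CPM in clone B5, against 24.7 and 21.01 CPM in clone C1 and 24.7 and 23.1 CPM in clone C5 (log2 difference -2.93, SE 0.17, adjusted p = 4.59e-05). The actin-linked factor SWAP70 had 6.57 and 5.32 CPM in clone B5, against 19.2 and 19.4 CPM in clone C1 and 18.8 and 19.4 CPM in clone C5 (log2 difference -1.68, SE 0.13, adjusted p = 0.000207).

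For WDFY4 and C16orf62 clone B5 stayed near the parental level while the other clones were lower. WDFY4, which acts in antigen cross-presentation, had 24.05 and 26.00 CPM in clone B5, against 5.54 and 6.80 CPM in clone C1 and 6.03 and 4.75 CPM in clone C5, with 28.98 and 30.97 CPM in parental cells. AMPD1, an enzyme of the purine nucleotide cycle, had 447 and 495 CPM in clone B5, against 282 and 429 CPM in clone C1 and 39.3 and 41.7 CPM in clone C5, lowest in clone C5. CCL3, a chemokine that myeloma cells secrete, had 10.5 and 6.59 CPM in clone B5, against 82.02 and 45.9 CPM in clone C1 and 42.6 and 54.3 CPM in clone C5 (log2 difference -2.69, SE 0.28, adjusted p = 0.00107), and the parental level was 19.2 and 20.8 CPM. MYC had 50.2 and 54.6 CPM in clone B5, against 113 and 98.8 CPM in clone C1 and 69.6 and 73.2 CPM in clone C5 (log2 difference -0.73, SE 0.10, adjusted p = 0.00294).

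In the class II list 9 of 17 genes were lower in clone B5 than the mean of the other clones and 0 were higher. Of all genes 5.81% were lower and 4.98% higher in this comparison. The median log2 difference of the list was -0.63. HLA-DQA2 (adjusted p = 0.0392) and HLA-DPB1 (0.0487) did not keep their calls without clone C5 replicate 2, and HLA-DRA was not called (0.0548). Against parental cells the median was 2.33 for clone B5, 2.77 for C1 and 3.56 for C5. LGMN showed the clones apart, at 134 and 127 CPM in clone B5, against 884 and 554 CPM in clone C1 and 222 and 256 CPM in clone C5 (log2 difference -1.67, SE 0.19, adjusted p = 0.00139). BCL2 was at 199.9 and 193 CPM in clone B5, against 271 and 277 CPM in clone C1 and 251 and 228 CPM in clone C5 (log2 difference -0.38, SE 0.10, adjusted p = 0.036). BCL2L11 was at 23.2 and 24.03 CPM in clone B5, against 30.3 and 22.9 CPM in clone C1 and 53.1 and 54.9 CPM in clone C5 (log2 difference -0.68, SE 0.13, adjusted p = 0.0116). Both clone B5 libraries lay within the range of clone C1, and the call was lost without clone C5 replicate 2. Relative to parental cells the log2 fold changes of BCL2L11 were 0.88 for clone B5, 1.06 for C1 and 2.08 for C5. CD38 had 79.9 and 74.9 CPM in clone B5, against 78.96 and 97.9 CPM in clone C1 and 2.36 and 2.71 CPM in clone C5 (log2 difference 2.37, SE 0.11, adjusted p = 1.09e-05). Cholesterol genes were higher in clone B5 than the other clones in 10 of 25 and lower in 1, with SQLE at 265 and 262 CPM in clone B5, against 111 and 139 CPM in clone C1 and 125 and 165 CPM in clone C5 (log2 difference 0.97, SE 0.13, adjusted p = 0.00311). The folding genes of the endoplasmic reticulum had 1 of 28 higher and 0 lower in this comparison, and their medians against parental cells were -0.40 for clone B5, -0.57 for C1 and -0.80 for C5.

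**Figure D4:**
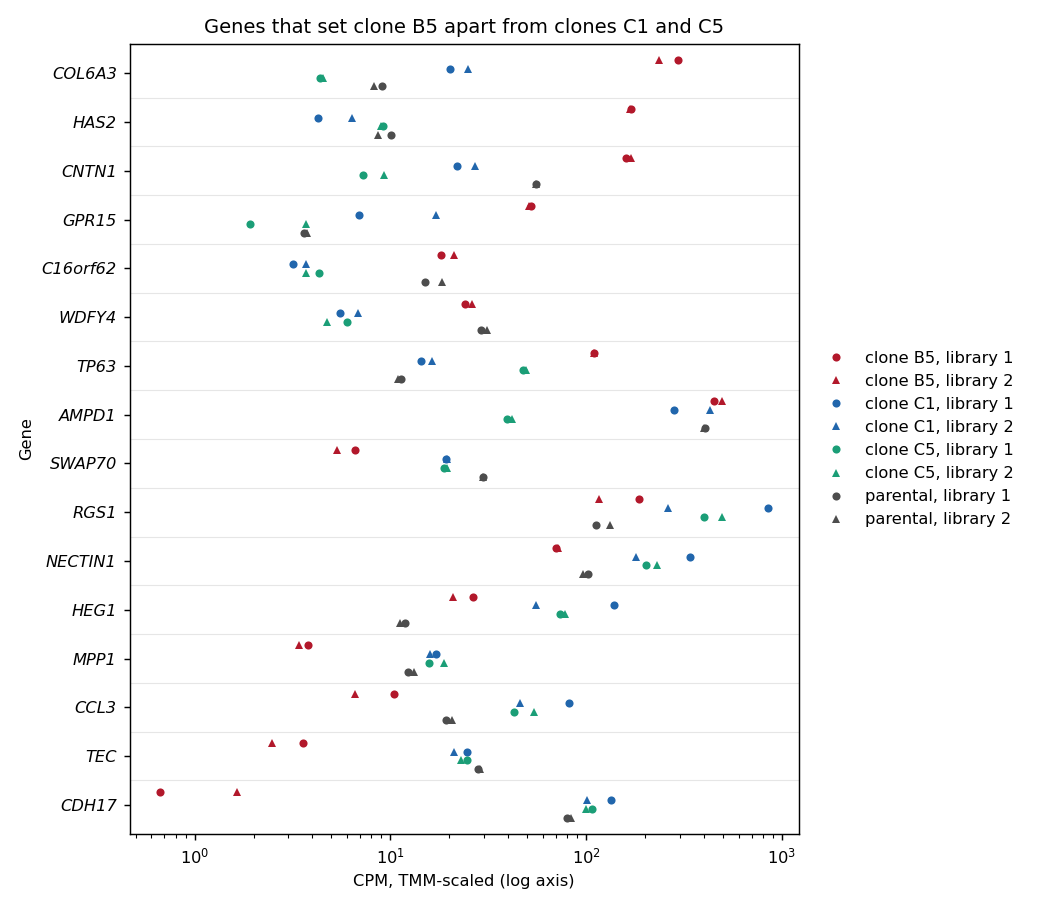
Level of the 16 genes furthest apart between clone B5 and clones C1 and C5, as TMM-scaled CPM on a log axis, with 1 point per library (circles library 1, triangles library 2; clone B5 red, clone C1 blue, clone C5 green, parental grey). CDH17 lies at 0.666 and 1.65 CPM in clone B5, against 133 and 100.4 CPM in clone C1 and 107 and 99.7 CPM in clone C5, with 80.05 and 84.02 CPM in parental cells.

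Changes were unevenly spread over the chromosomes, as placed with GENCODE 29 for 12187 tested genes on the autosomes and X. Genes of chromosome 11 made up 5.42% of them and 24.0% of those lower in clone B5: 327 of 661 were lower and 12 higher, with a median log2 fold change of -0.59, against -0.36 in clone C1 and -0.38 in clone C5. From 0 to 70 Mb, a stretch bounded after the values were seen, 273 of 414 genes were lower, with a median of -0.76, and from 70 to 140 Mb 54 of 247, with a median of -0.24. In the first stretch 84 genes (20.3%) were also lower than the mean of the other clones, beside 5.81% of all genes, and 4 were higher. CDK2AP2, a growth inhibitor on this chromosome, had 15.4 and 18.6 CPM in clone B5, against 58.1 and 58.4 CPM in parental cells (log2 fold change -1.78, SE 0.13, adjusted p = 5.2e-05). RELA, a subunit of NF-kB, had 40.02 and 49.98 CPM in clone B5, against 83.1 and 83.7 CPM in parental cells (log2 fold change -0.89, SE 0.13, adjusted p = 0.00168). UBASH3B, a phosphatase that restrains SYK, had 0.458 and 0.957 CPM in clone B5, against 53.8 and 50.5 CPM in parental cells (log2 fold change -6.24, SE 0.34, adjusted p = 1.34e-05). UBASH3B was also low in the other clones, at 0.636 and 0.269 CPM in clone C1 and 0.943 and 0.638 CPM in clone C5.

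Chromosome 8 was higher, with 161 of 426 genes called higher, 16 lower and a median of 0.41, against 0.19 in clone C1 and 0.15 in clone C5. There 64 genes were higher and 13 lower than the mean of the other clones. FZD6, a WNT receptor, had 72.3 and 69.6 CPM in clone B5, against 34.3 and 35.4 CPM in parental cells (log2 fold change 1.03, SE 0.10, adjusted p = 0.000206). GDAP1, of the mitochondrial outer membrane, had 61.7 and 54.6 CPM in clone B5, against 19.04 and 19.3 CPM in parental cells (log2 fold change 1.60, SE 0.12, adjusted p = 6.19e-05). MYC and CDH17 lie on this chromosome and were lower. On the X chromosome 206 of 423 genes were higher and 13 lower, with medians of 0.55 for clone B5, 0.58 for C1 and 0.53 for C5. Chromosome 4 was lower in all clones, with medians of -0.32 for clone B5 and -0.31 for both C1 and C5, and with 122 of 423 genes called lower in clone B5.

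On chromosomes 3 and 14 clone B5 stood apart from the other clones. From 0 to 60 Mb of chromosome 3, a stretch bounded after the values were seen, 78 of 306 genes were lower than in parental cells, with a median of -0.24, against -0.04 in clone C1 and -0.01 in clone C5. In that stretch 69 genes (22.5%) were lower than the mean of the other clones, beside 5.81% of all genes. NKIRAS1, an inhibitor of NF-kB signalling, had 4.37 and 5.10 CPM in clone B5, against 13.2 and 14.7 CPM in parental cells (log2 fold change -1.57, SE 0.18, adjusted p = 0.000492), with 14.3 and 12.4 CPM in clone C1 and 12.6 and 10.7 CPM in clone C5. UBA7, which activates the ubiquitin-like protein ISG15, had 6.66 and 5.21 CPM in clone B5, against 17.5 and 18.9 CPM in parental cells (log2 fold change -1.61, SE 0.18, adjusted p = 0.000504), with 10.98 and 8.87 CPM in clone C1 and 11.3 and 12.3 CPM in clone C5. On chromosome 14 82 of 413 genes were higher than in parental cells, with medians of 0.19 for clone B5, -0.02 for C1 and 0.04 for C5, and 59 (14.3%) were higher than the mean of the other clones, beside 4.98% of all genes. On chromosome 16 the clones parted in another way: 104 of 567 genes (18.3%) were higher in clone B5 than the mean of the other clones, while the medians against parental cells were 0.04 for clone B5, -0.16 for C1 and -0.19 for C5. C16orf62, on this chromosome, had 18.2 and 21.2 CPM in clone B5, against 3.18 and 3.73 CPM in clone C1 and 4.31 and 3.71 CPM in clone C5, with 15.1 and 18.4 CPM in parental cells. Whether the DNA of these regions differed between the populations was not analysed here. Away from chromosomes 4, 8, 11 and X, 10.0% of 10254 genes were higher and 8.62% lower.

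**Figure D5:**
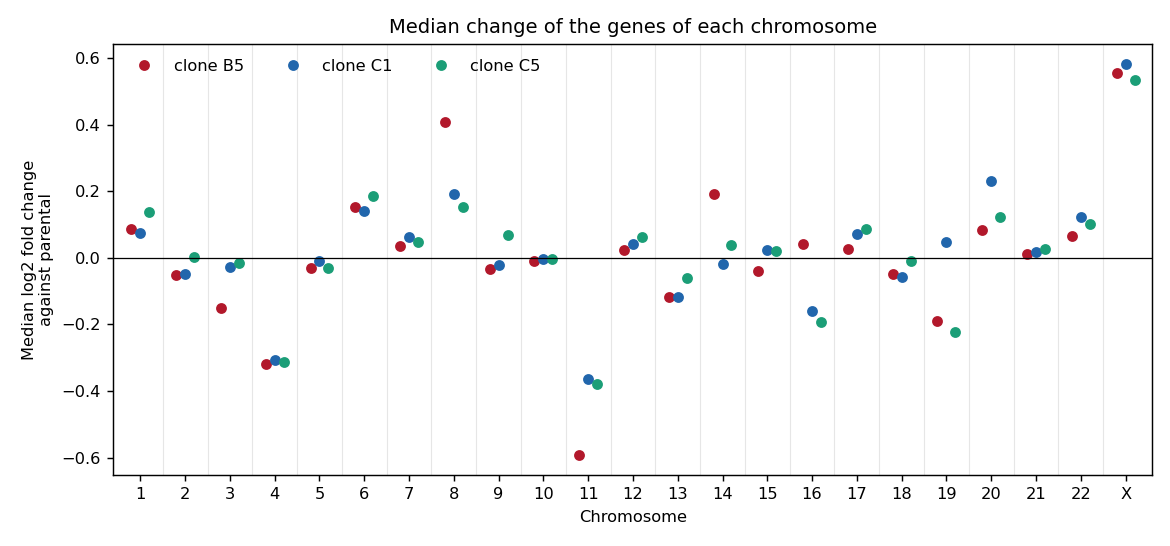
Median log2 fold change against parental cells of the tested genes of each chromosome in clone B5 (red), clone C1 (blue) and clone C5 (green). Chromosome 11 lies at -0.59 and chromosome 8 at 0.41 in clone B5, and the X chromosome between 0.53 and 0.58 in the 3 clones.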

How the data were processed

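RNA of parental KMS27 and of clones B5, C1 and C5 was measured in 2 libraries each, from poly-A RNA with the Roche Kapa mRNA kit, per the labels' protocols. For this line the authors deposited counts by gene symbol, as whole numbers with no normalization. The build was hg38 per the submitters' processing notes. Aligner, counter, annotation and strandedness were not given in the sources used here, so reads of overlapping and antisense genes could not be separated. Every listed gene had at least 5 counts in at least 4 libraries, found from the values, so a gene off in most populations is not listed. Totals in the 8 libraries ran from 20257318 to 52615971 counts, and intervals and floors cover counting error only.

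The 8 libraries were fitted together in edgeR 4.0.16 (R 4.3.3, limma 3.58.1) with 1 mean per population, TMM scaling and the default filter on low counts, which left out 472 of 14560 genes. The quasi-likelihood test compared clone B5 with parental cells and with the mean of clones C1 and C5, with Benjamini-Hochberg adjustment over 14088 genes. Standard errors were derived from the fold change and the test statistic. DESeq2 1.42.0 served as an alternative. Gene lists are described by counts and medians with no test of their own. The members and lists were chosen with earlier results of these data known. Genes named in the text were the 12 largest rises and falls among called genes with a mean of at least 3 log2 CPM and separate groups, up to 4 called genes per list, a fixed panel of BCL2-family, target and regulator genes, the 8 furthest each way from the other clones (at that mean level) and between the clone B5 libraries (from 6 log2 CPM on average), genes that went to or from 3 counts or fewer, and called genes of chromosomes or windows whose median passed 0.3. Genes outside this rule were named after their values were seen, as context: LGMN, CTSS, HLA-DMA, HLA-DMB, HLA-DOA, CIITA, CTSC, CTSZ, HSPA5, HSP90B1, ERN1, SPIB, SYK, S1PR1, ITGA4, CD3E, NCAM1 and the genes whose promoters are shown. Positions are from GENCODE 29 (GRCh38), matched by symbol for 12426 genes (85.3%). The KMS12PE table and the whole-genome data were not used here. Some named genes are not reported here.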

Additional observations from a re-analysis of the deposited data

Results flagged for a closer look

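Each result here stands out because the change in clone B5 differed from that in clones C1 and C5, by the test of clone B5 against their mean in edgeR's quasi-likelihood fit. The values are log2 differences with Benjamini-Hochberg adjusted p-values. Rises over the other clones were COL6A3 (4.73, adjusted p = 4.55e-07), HAS2 (4.62, 6.59e-07), CNTN1 (3.54, 1.04e-06), GPR15 (3.17, 0.000865), C16orf62 (2.41, 6.68e-05), WDFY4 (2.12, 6.72e-05), TP63 (2.00, 5.61e-06) and AMPD1 (1.97, 0.000226). Falls below the other clones were CDH17 (-6.62, 5.44e-06), TEC (-2.93, 4.59e-05), CCL3 (-2.69, 0.00107), MPP1 (-2.23, 0.000102), HEG1 (-1.87, 0.0086), NECTIN1 (-1.73, 0.00273), RGS1 (-1.72, 0.033), SWAP70 (-1.68, 0.000207) and CD58 (-0.72, 0.00526).

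In each of these 17 genes both clone B5 libraries lay outside the range of the 4 libraries of the other clones, as in 28.4% of all genes tested, and for all but CD58 this was a condition of their choice. RGS1 lost its call without clone C5 replicate 1 (adjusted p = 0.0831) and without clone C5 replicate 2 (adjusted p = 0.104), and the other 16 were called whichever of the 6 clone libraries was left out. CD58, a ligand for T cells and natural killer cells, had 38.5 and 31.1 CPM in clone B5, against 47.8 and 44.1 CPM in clone C1 and 73.8 and 70.2 CPM in clone C5, with 50.1 and 48.4 CPM in parental cells. Relative to parental cells its log2 fold changes were -0.50 for clone B5, -0.10 for C1 and 0.55 for C5.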

How the results depend on the processing

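Calls in clone B5 against parental cells numbered 1153 (555 higher and 598 lower) when only the 4 libraries of the comparison were fitted, and 670 (314 higher and 356 lower) in a test against a minimum fold of 1.5. Leaving out 1 library at a time gave 1224 to 5032 calls, 561 to 2546 higher and 663 to 2486 lower. Against clones C1 and C5 it gave 546 to 2726 calls, 259 to 1333 higher and 287 to 1393 lower. Over 1.5-fold differences between the clone B5 libraries numbered 337 among genes of at least 6 log2 CPM, where fewer genes were compared. DESeq2 called 1596 higher and 1515 lower, its size factors in edgeR 1517 and 1443, and no filter 1513 and 1420. The labels do not say that a replicate number marks a shared batch, and it was treated as a number only. The correlation of the differences between libraries 1 and 2 was 0.444 between clone B5 and parental cells and ran from 0.0597 to 0.139 in the other pairs of populations. With the replicate number as a block, 1821 genes were higher and 1814 lower than in parental cells, and 960 higher and 1098 lower than in clones C1 and C5.

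Of the 313 genes chosen for the text 276 were called, and the direction was kept in all 276 under every alternative. Calls lost among them numbered 146 under the minimum fold, 89 with 4 libraries, 79 and 62 without parental replicates 1 and 2, 5 and 15 without clone B5 replicates 1 and 2, and 0 with the block, DESeq2, its size factors or no filter. CENPF, not called, had log2 fold changes of -0.74 to 0.72 with 1 library left out, the lowest without clone B5 replicate 1 and the highest without clone B5 replicate 2. The median of the plasma cell markers was 0.047 without the genes of chromosomes 4, 8, 11 and X, an alternative chosen after the data were seen, and -0.30 with them. The number of libraries, 2 per population, limits all results.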
